A study of Rattus norvegicus with 8 samples.

Results

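The genes described here are the nuclear-encoded subunits of the oxidative phosphorylation machinery, 76 of the 14497 genes that the arrays measured with a probe set of a single symbol. They were chosen by symbol alone: Ndufa, Ndufb, Ndufc, Ndufs and Ndufv genes for complex I, Sdha to Sdhd for complex II, Uqcr genes for complex III, Cox4 to Cox8 genes for complex IV and Atp5 genes for complex V. Cox6a2 and Cox8b, forms of complex IV subunits made mainly in skeletal muscle and heart, were set apart from the other 74. Cox7a1, another such form, was not analysed here. Of the 74 genes, 33 came under complex I, 4 under complex II, 7 under complex III, 14 under complex IV and 16 under complex V. Ndufa4 was counted with complex I by its symbol, although its product is now assigned to complex IV. Cox6c-ps1 and Ndufs6-ps1 carry the biotype of pseudogenes in the current RefSeq annotation, and they were kept because the rule reads symbols only.

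Complexes I to IV, in the inner mitochondrial membrane, pass electrons from NADH and succinate to oxygen. Complexes I, III and IV pump protons across the membrane as they do so. Complex V, the ATP synthase, lets the protons flow back and makes ATP. Most subunits are encoded in the nucleus and imported, while a core set is encoded in mitochondrial DNA. Sensory neurons of the dorsal root ganglion (DRG) depend on this machinery to supply very long axons.

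RNA came from the injured, ipsilateral L5 DRG of adult male Wistar rats, taken on day 14 after transection of the L5 spinal nerve. HDACI rats (4 arrays) received MS-275, an inhibitor of class I histone deacetylases, at 30 nmol/day into the spinal intrathecal space from an osmotic pump, and vehicle rats (4 arrays) received the solvent, dimethyl sulfoxide in saline, by the same route. All 8 animals were injured, and delivery began before the injury in the study's pretreatment design. The labels attach the MS-275 protocol to the vehicle samples too, so groups were read from the sample titles.

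Values were log2 signals from Affymetrix rat gene arrays after robust multi-array averaging (RMA), which equalizes the distribution of signal between arrays. A level is therefore comparable for 1 probe set across arrays and not between probe sets. Array medians lay between 8.132 and 8.158. Of 15 sensory neuron markers 14 were measured, with mean levels between 9.24 and 13.4 and none below the dim limit of 6.95, the 30th percentile of all probe sets. The arrays differed in skeletal muscle transcripts: all 25 measured of 30 listed muscle markers had a lower mean in HDACI, and their summed linear signal ran from 5128 to 6790 over the HDACI arrays and from 5774 to 68967 over the vehicle arrays. The median deviation of these markers from their own mean over all arrays was 2.45 in vehicle 1, 1.38 in vehicle 2, -0.85 in vehicle 3 and 0.39 in vehicle 4, and between -0.96 and -0.73 in the HDACI arrays. No probe set of the 28826 passed an adjusted p of 0.05 between HDACI and vehicle (limma, Benjamini-Hochberg), and 1022 had an unadjusted p under 0.05. In bulk tissue, fewer cells of a type and less RNA per cell cannot be told apart.

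The 74 genes had bright probe sets, although a probe set's level also reflects its probes. Of these, 68 had a mean above that of the median gene, 37 lay above the 90th percentile of genes, and 72 lay above the dim limit. The 2 below it were the pseudogene Cox6c-ps1 and Cox8c, a form of complex IV subunit 8 found in testis. The brightest probe set of complex I belonged to Ndufs4, which encodes an accessory subunit of its electron-input arm, at 12.5 in HDACI and 12.5 in vehicle. Cox6c reached 13.1 in both groups, and Atp5f1d, the delta subunit of the ATP synthase, reached 13.4 in both groups. The 74 genes had a median mean of 11.1 against 8.87 for all genes, and variation was not compared at matched level. Their median SD over the 8 arrays was 0.082 against 0.093 for all genes, and 47 of 74 lay under that all-gene median. The least variable was Atp5f1b, the catalytic beta subunit of the ATP synthase, with an SD of 0.025 and values from 12.45 to 12.51.

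No gene of the 74 passed the test after adjustment over all probe sets (limma, 0 of 74, where 0% of the 28826 probe sets passed), and the smallest adjusted p among them was 0.9998. At an unadjusted p under 0.05, 2 of 74 were lower in HDACI (Ndufa5 and Atp5mc1), where 1.93% of all genes were, and 0 of 74 were higher, where 1.41% were. All HDACI arrays lay below all vehicle arrays for 1 of 74 genes, Ndufa5 (1.20% of all genes), and above them for 0 (1.04% of all genes). The differences, HDACI minus vehicle, ran from -0.18 to 0.19 log2, and 64 of 74 were under 0.1 in either direction. The 95% confidence interval of the difference stayed within a 1.3-fold change either way for 70 genes and within a 1.5-fold change for all 74. The intervals reached a median of 0.14 log2 to either side of the difference, from 0.089 for the narrowest to 0.376 for the widest.

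**Figure D1:**
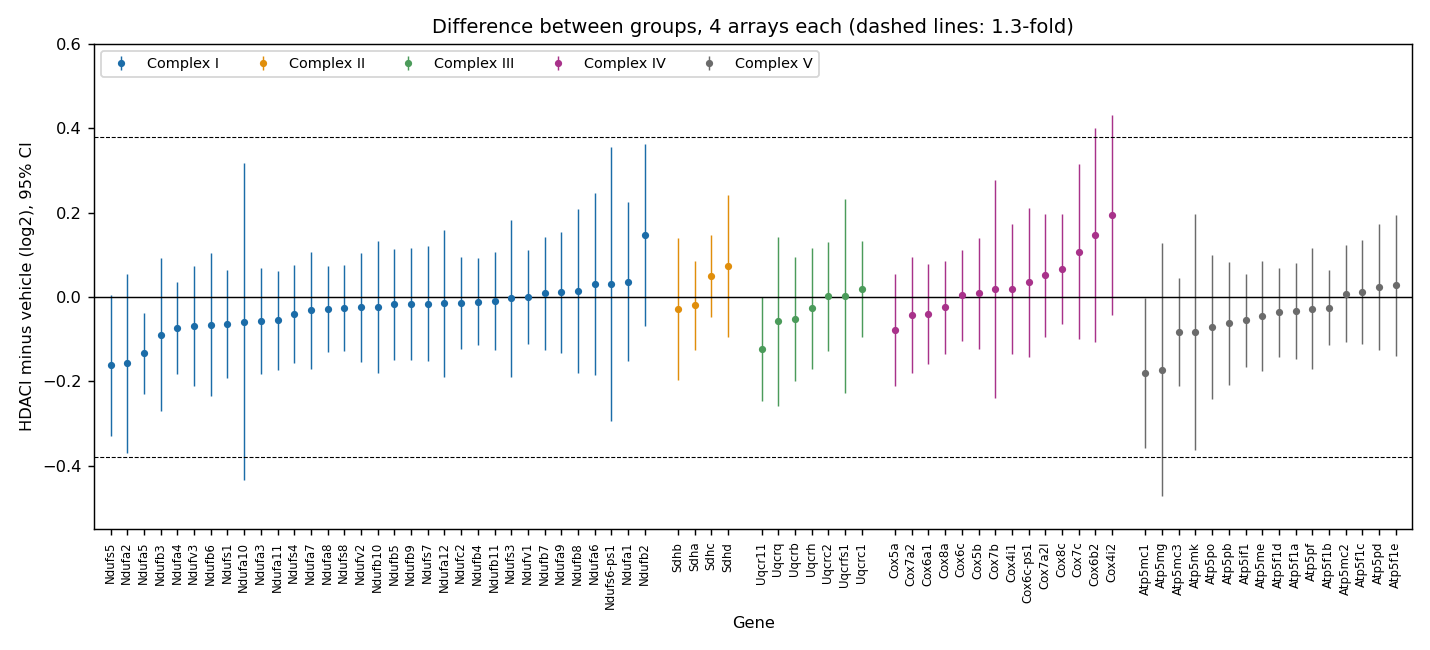
HDACI minus vehicle difference in log2 signal for each of the 74 genes (points, n = 4 arrays per group), with its 95% confidence interval (vertical lines), sorted within each complex and colored by complex. Dashed lines mark a 1.3-fold change either way, within which 70 intervals lie; the intervals of Ndufa5 and Atp5mc1 lie wholly below 0.

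In sign, 48 of the 74 genes (64.9%) had a lower mean in HDACI, where 46.9% of all genes did. Their median difference was -0.02 log2, against 0.00 for all genes. This count rested on single vehicle arrays: without vehicle 1 it was 31 of 74 and the median turned to 0.01, and without vehicle 4 it was 64 of 74 with a median of -0.05. By complex, 26 of 33 genes of complex I were lower (median -0.02), 2 of 4 of complex II (median 0.02), 4 of 7 of complex III (median -0.03), 4 of 14 of complex IV (median 0.02) and 12 of 16 of complex V (median -0.04). The differences between complexes were not tested.

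Array by array, the vehicle group held both ends of the range. Taking each gene's deviation from its own mean over the 8 arrays, the median over the 74 genes was 0.00 in HDACI 1, -0.02 in HDACI 2, -0.02 in HDACI 3 and -0.01 in HDACI 4. In the vehicle arrays it was 0.11, 0.04, -0.03 and -0.07 for replicates 1 to 4. The 4 HDACI arrays thus lay within the range of the vehicle arrays. Vehicle 1 had the highest value of all arrays for 51 of the 74 genes, where 13.6% of all genes had their highest value there. Vehicle 4 had the lowest for 31 of 74, where 2174 of all 14497 genes did. Vehicle 1 was above the gene's own mean for 63 of 74 genes and vehicle 2 for 58, but vehicle 3 for 23 and vehicle 4 for 15. Over all 14497 genes these counts were 6395, 6966, 7378 and 7628 for vehicle 1 to 4. All 5 complexes shared the high level of vehicle 1, from 0.06 for complex IV to 0.13 for complex I, and all 5 were low in vehicle 4, from -0.11 for complex IV to -0.05 for complex II.

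**Figure D2:**
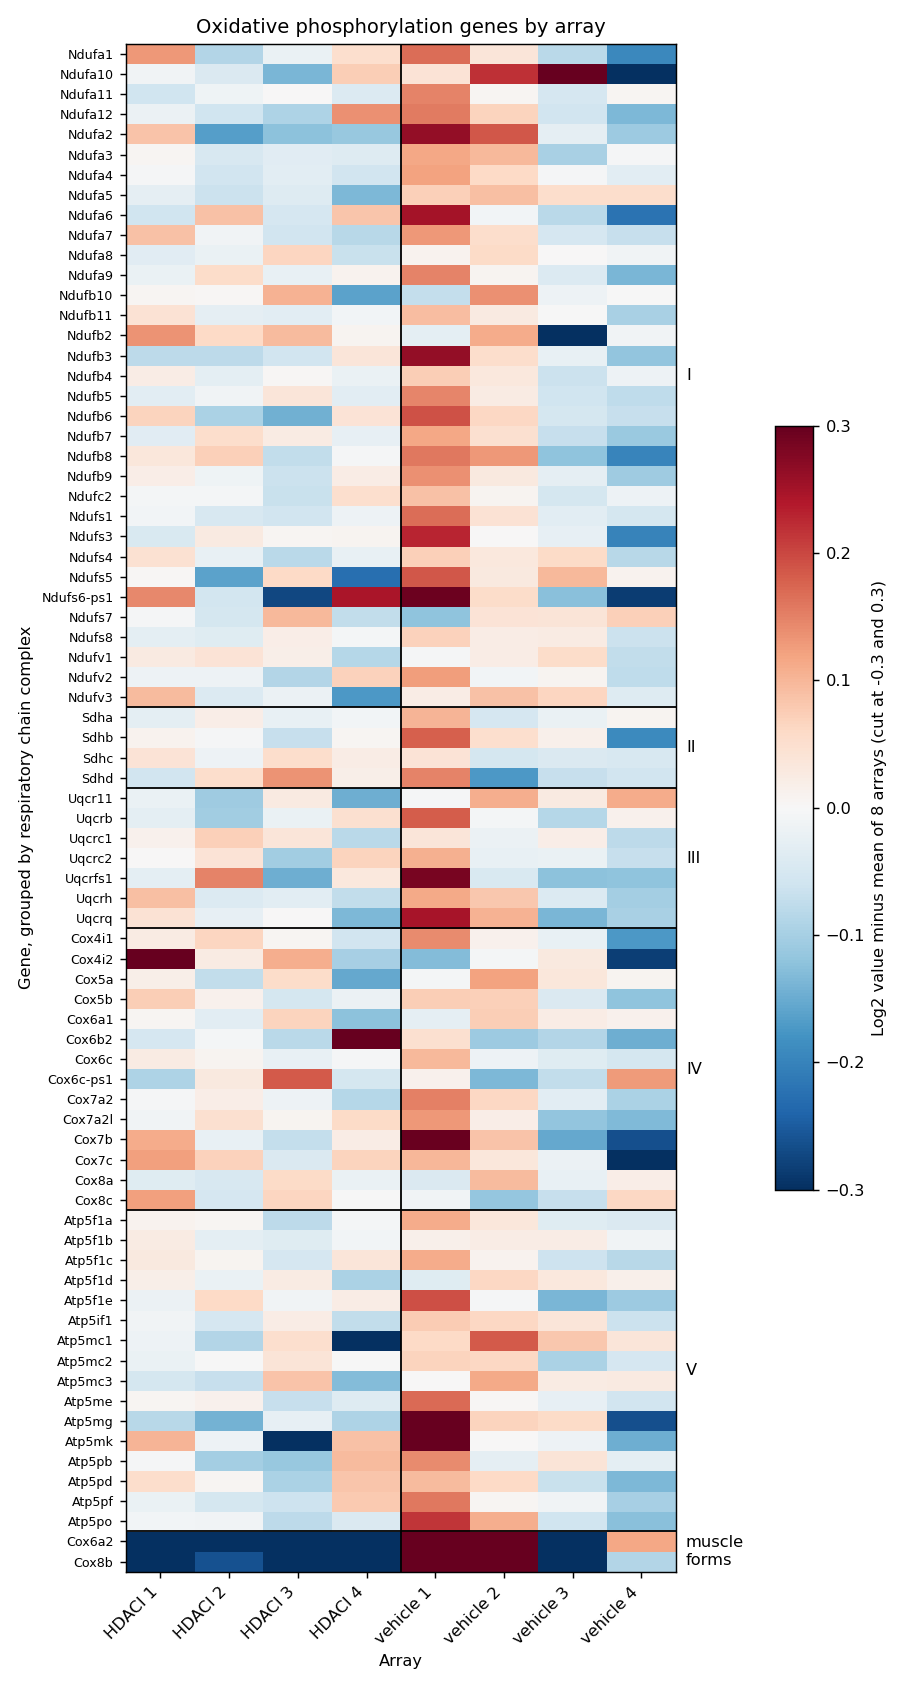
Log2 signal of each of the 76 genes (vertical axis, grouped by complex) in each array (horizontal axis), minus the gene's mean over the 8 arrays; red is above and blue below that mean, and colors are cut at -0.3 and 0.3. Vehicle 1 is red through most of complexes I to V and vehicle 4 mostly blue, and the muscle forms at the foot are high in vehicle 1 and vehicle 2.

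The muscle markers followed part of this order. Vehicle 1 and vehicle 2, the arrays with the most muscle signal, were also the highest for the oxidative phosphorylation genes. Vehicle 4, next to them in muscle signal, had the lowest median of the 74 genes. Other marker lists moved too. In HDACI 4 the median macrophage marker lay 0.39 above and the median Schwann cell marker -0.39 from its mean. The 74 genes had a median of -0.01 there. In vehicle 1 the median macrophage marker lay 0.13 above and the median sensory neuron marker -0.10 from its mean. The part of the muscle markers in the oxidative phosphorylation values was not tested beyond the refits that follow. That of the other markers was not tested.

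**Figure D3:**
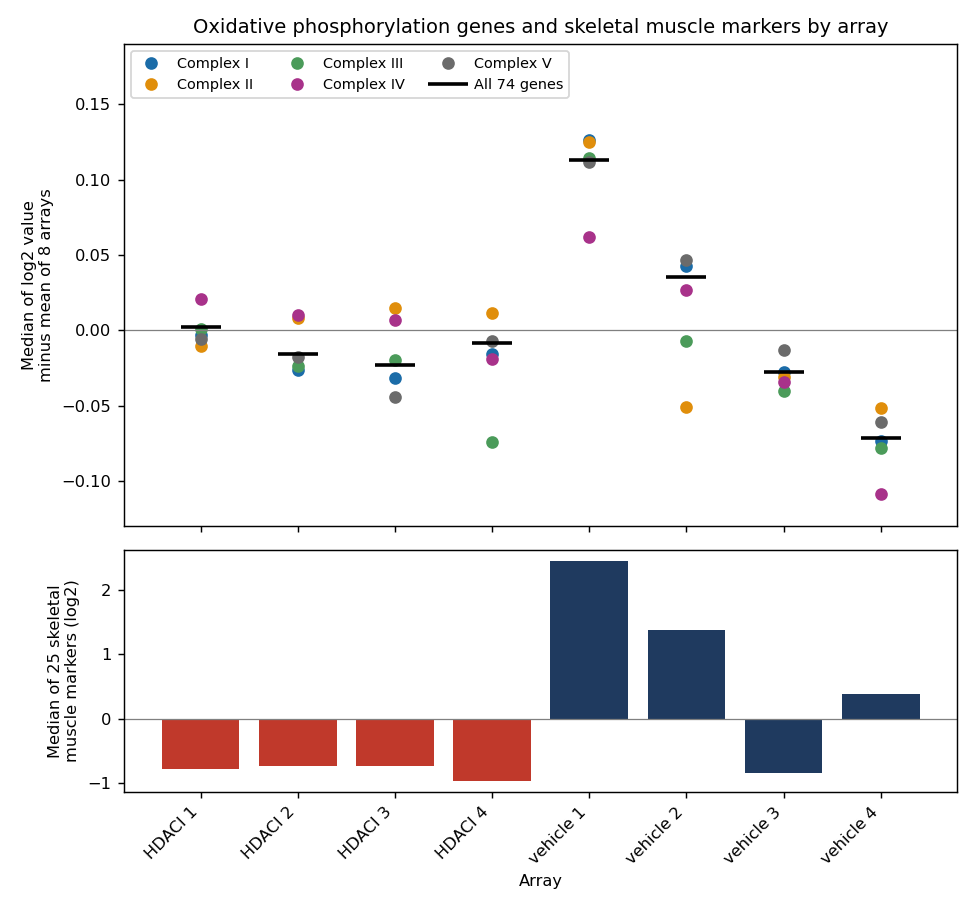
Upper panel, median over the genes of each complex (colored points) and over all 74 genes (black bars) of the log2 deviation from the gene's own mean, per array. Lower panel, the same median over 25 skeletal muscle markers, 2.45 in vehicle 1 and 1.38 in vehicle 2; vehicle 4 is lowest in the upper panel, at -0.07, and has 0.39 in the lower one.

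With the mean deviation of the muscle markers as a covariate, 21 of 74 genes were lower in HDACI and 53 higher. The median difference turned from -0.02 to 0.05 log2, while 50.1% of all genes were lower. This score ran from -1.06 to -0.69 over the HDACI arrays and from -0.90 to 2.17 over the vehicle arrays. Its slope thus came mainly from the vehicle arrays, and the refit cannot cleanly separate muscle signal from treatment. The same limit holds wherever the score is used below. Without vehicle 1 and vehicle 2, 22 were lower and 52 higher with a median of 0.04, while 51.7% of all genes were lower. Without vehicle 4 as well, which leaves 1 vehicle array assumed to vary as the others do, 29 were lower and 45 higher. There the median was 0.02, while 49% of all genes were lower. Leaving out arrays was chosen after the data were seen. Under the covariate 3 genes were higher at an unadjusted p under 0.05 (Atp5f1e, Cox7a2l and Ndufb2), where 1.3% of all genes were, and 0 were lower. Without the pair of vehicle arrays 5 were higher (the same 3 with Cox7b and Ndufb8), where 1.59% of all genes were, and 0 were lower. No gene of the 74 passed an adjusted p of 0.05 in any of these fits, and the smallest was 0.917. Ndufb2, an accessory subunit of the membrane arm of complex I, had the largest of these covariate differences. It measured 9.39, 9.31, 9.35 and 9.26 in HDACI 1 to 4 and 9.22, 9.36, 8.88 and 9.24 in vehicle 1 to 4. Vehicle 3 was the low array and the groups overlapped. Its difference was 0.15 ± 0.10 (SE) over all arrays, 0.35 with the covariate, 0.26 without vehicle 1 and vehicle 2, and 0.050 without vehicle 3.

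**Figure D4:**
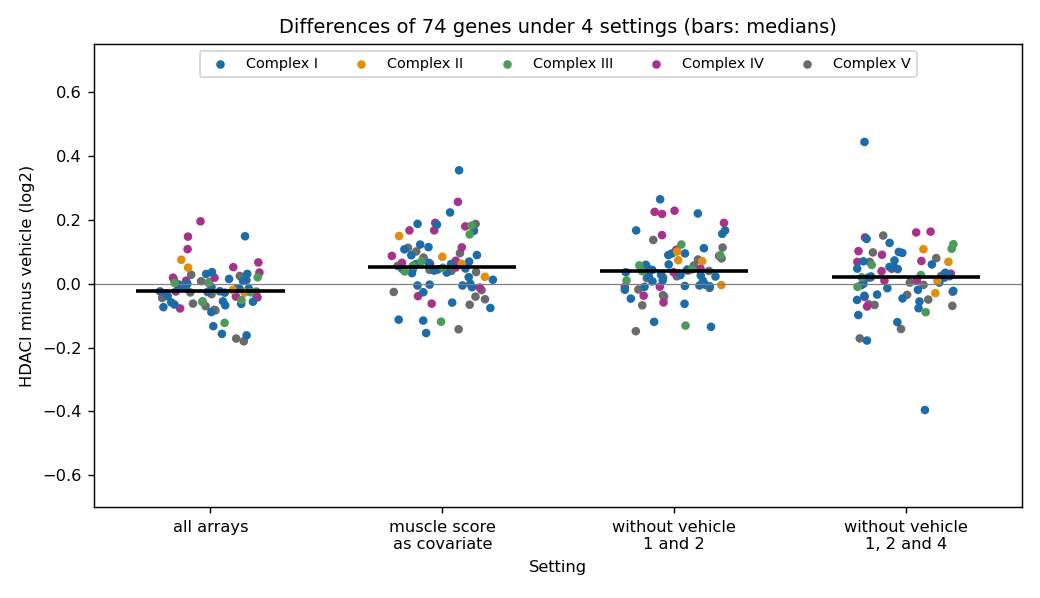
HDACI minus vehicle difference in log2 signal of the 74 genes (points, colored by complex) over all arrays, with the muscle marker score as a covariate, and without the vehicle arrays named; black bars are medians. The medians are -0.02, 0.05, 0.04 and 0.02 from left to right.

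The muscle forms of complex IV subunits differed most in size. Cox6a2, the muscle and heart form of subunit 6A, measured 7.85, 7.90, 8.10 and 7.84 in HDACI 1 to 4. In vehicle 1 to 4 it measured 9.95, 9.29, 7.81 and 8.52. Vehicle 1 and vehicle 2 were high, vehicle 3 was the lowest of all 8 arrays, and the groups overlapped. The means were 7.92 ± 0.12 in HDACI and 8.90 ± 0.93 in vehicle (SD, n = 4), a difference of -0.97 ± 0.39 (SE) log2, or 1.96-fold lower in HDACI (limma, unadjusted p = 0.033, adjusted p = 0.9998). Cox8b, the corresponding form of subunit 8, measured 6.35, 6.40, 6.30 and 6.22 in HDACI and 7.76, 7.38, 6.32 and 6.58 in vehicle, in replicate order. The same vehicle arrays were high, and vehicle 3 lay within the HDACI range. Its difference was -0.69 ± 0.28 (limma, unadjusted p = 0.036, adjusted p = 0.9998), and its mean lay under the dim limit.

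Both differences went with the muscle markers. With the marker score as a covariate Cox6a2 differed by 0.14 and Cox8b by 0.09, and without vehicle 1 and vehicle 2 they differed by -0.25 and -0.13. Without vehicle 1, vehicle 2 and vehicle 4 the values were 0.11 and 0.00. The forms made in most tissues had small differences. Cox6a1, the general form of subunit 6A, measured 12.32, 12.28, 12.38 and 12.19 in HDACI and 12.28, 12.38, 12.33 and 12.32 in vehicle. The groups overlapped, and HDACI 4 was the lowest array. The difference was -0.04 ± 0.05, with a 95% confidence interval from -0.16 to 0.08. Cox8a differed by -0.02 ± 0.05 (95% confidence interval -0.14 to 0.09) and Cox7a2 by -0.04 ± 0.06 (-0.18 to 0.09). Cox7a2 was highest in vehicle 1 (12.73) and vehicle 2 (12.64), and its difference was 0.06 with the marker score as a covariate and 0.04 without these arrays.

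**Figure D5:**
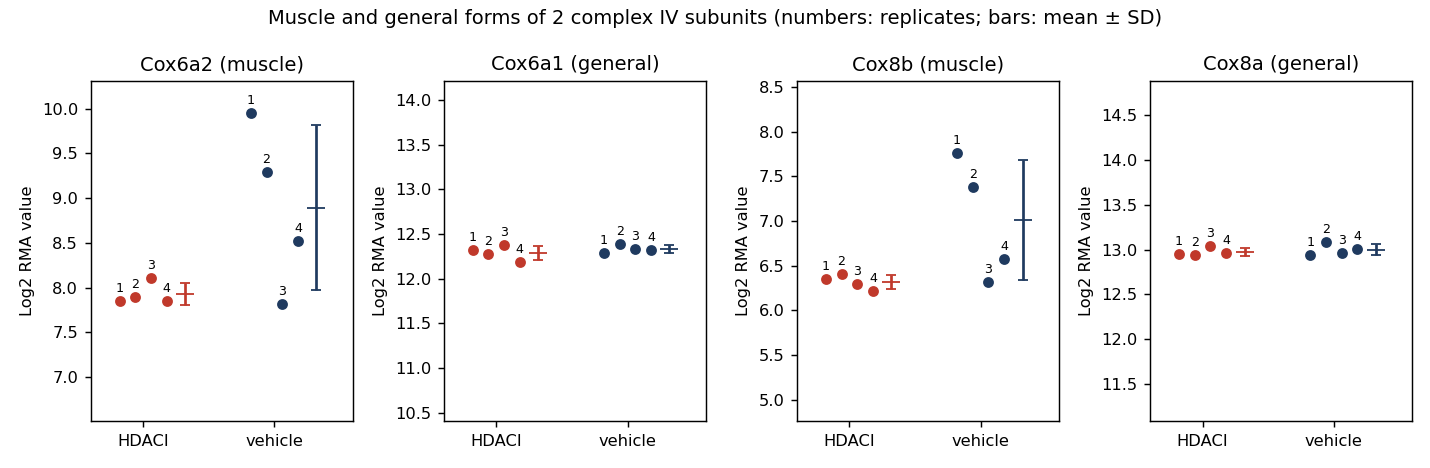
Log2 signal per array (points, numbered by replicate) of the muscle and general forms of subunit 6A and subunit 8, with the group mean and SD beside them (n = 4); every panel spans the same log2 range. Vehicle 1 and vehicle 2 stand high for Cox6a2 (9.95 and 9.29) and Cox8b (7.76 and 7.38), and all arrays of Cox6a1 and Cox8a lie close together.

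Promoters of 4 genes are printed because they set the muscle forms beside a general form and beside Ndufa5, the gene whose groups did not overlap. Each runs from 250 bases before to 50 bases after the start of the gene in RefSeq, build GRCr8, 5′ to 3′ on the gene's own strand, which is the minus strand for all 4. They lie at chr1:192219667-192219966 (Cox6a2), chr1:205408224-205408523 (Cox8b), chr1:213833574-213833873 (Cox8a) and chr4:53971186-53971485 (Ndufa5). Capitals mark matches, on either strand, to the E-box CAGCTG bound by muscle regulatory factors, the NRF-1 core GCGCANGCG, the ETS core CCGGAAG and the YY1 core AAGATGG.
Cox6a2: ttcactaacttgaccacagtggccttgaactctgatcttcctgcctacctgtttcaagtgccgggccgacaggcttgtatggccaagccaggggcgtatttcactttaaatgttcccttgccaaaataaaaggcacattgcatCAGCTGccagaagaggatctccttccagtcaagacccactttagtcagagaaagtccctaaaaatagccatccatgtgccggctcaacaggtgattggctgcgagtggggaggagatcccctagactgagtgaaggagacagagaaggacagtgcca
Cox8b: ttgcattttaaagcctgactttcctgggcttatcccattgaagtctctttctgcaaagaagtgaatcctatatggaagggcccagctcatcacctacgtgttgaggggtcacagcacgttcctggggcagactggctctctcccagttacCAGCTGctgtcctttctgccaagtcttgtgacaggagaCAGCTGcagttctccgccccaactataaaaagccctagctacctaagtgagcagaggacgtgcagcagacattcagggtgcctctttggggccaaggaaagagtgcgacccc
Cox8a: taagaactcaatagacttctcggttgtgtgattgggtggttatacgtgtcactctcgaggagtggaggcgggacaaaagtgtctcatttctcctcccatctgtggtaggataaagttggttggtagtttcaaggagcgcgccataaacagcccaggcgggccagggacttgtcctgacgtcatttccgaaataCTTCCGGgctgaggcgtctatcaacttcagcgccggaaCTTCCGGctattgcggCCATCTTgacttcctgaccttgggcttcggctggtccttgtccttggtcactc
Ndufa5: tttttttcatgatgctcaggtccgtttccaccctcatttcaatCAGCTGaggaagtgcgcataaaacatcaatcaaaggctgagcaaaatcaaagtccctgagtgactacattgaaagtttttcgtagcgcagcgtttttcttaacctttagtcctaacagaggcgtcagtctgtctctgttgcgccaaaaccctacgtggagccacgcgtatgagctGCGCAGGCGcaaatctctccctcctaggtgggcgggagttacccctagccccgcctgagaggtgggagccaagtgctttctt
The capitals are 1 E-box in Cox6a2, 2 E-boxes in Cox8b, 2 ETS cores followed by 1 YY1 core in Cox8a, all on the reverse strand, and 1 E-box and 1 NRF-1 core in Ndufa5.

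Across the family, 64 of the 74 genes and both muscle forms had a promoter entry. The NRF-1 core stood in 17 of the 64 promoters (26.6%), where 6.21% of all 27457 rat promoters of this length held it. The ETS core stood in 20 (31.3% against 9.21%) and the YY1 core in 15 (23.4% against 7.26%). The E-box stood in 9 (14.1% against 15.1%). Neither muscle form held the NRF-1, ETS or YY1 core, and both held the E-box. The median GC content was 56.7% for the 64 promoters and 52.3% for all. These 27457 promoters were not limited to genes that the arrays measured, and shares were not compared at matched GC content or expression level. A match describes the letters in this window and not a bound site.

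Among the complex I genes, Ndufa5 encodes an accessory subunit of the matrix arm. It measured 9.78, 9.74, 9.76 and 9.67 in HDACI 1 to 4, and 9.87, 9.89, 9.86 and 9.85 in vehicle 1 to 4. Every HDACI array lay below every vehicle array, and the vehicle arrays were nearly level. The means were 9.74 ± 0.05 and 9.87 ± 0.02 (SD, n = 4), and the difference was -0.13 ± 0.04 log2 (95% confidence interval -0.23 to -0.04; limma, unadjusted p = 0.012, adjusted p = 0.9998). With the muscle score as a covariate the difference was -0.11 with an unadjusted p of 0.11, and without vehicle 1 and vehicle 2 it was -0.12 with 0.074. Ndufs5, an accessory subunit of the membrane arm, measured 10.78, 10.62, 10.84 and 10.55 in HDACI and 10.97, 10.81, 10.88 and 10.79 in vehicle. HDACI 2 and HDACI 4 were low, and the groups overlapped through HDACI 3. Its difference was -0.16 ± 0.07 (limma, unadjusted p = 0.057), and a second, dimmer probe set of the gene differed by -0.28 (unadjusted p = 0.037). Its unadjusted p was under 0.05 without HDACI 1 (-0.19) or HDACI 3 (-0.21).

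Core subunits of complex I that carry the electrons differed little. The iron-sulfur subunit Ndufs1 differed by -0.06 ± 0.06 and the flavoprotein Ndufv1 by 0.00 ± 0.05, and the accessory subunit Ndufs4 differed by -0.04 ± 0.05. Ndufa10, singled out after its values were seen, was the most variable of the 74 genes with an SD of 0.26. It measured 8.10, 8.06, 7.97 and 8.18 in HDACI and 8.15, 8.33, 8.47 and 7.60 in vehicle. Vehicle 4 was the lowest and vehicle 3 the highest of all arrays. A much brighter probe set, annotated to both Ndufa10 and Ndufa10l1 and so left out of the family, had a mean of 11.7 and a difference of -0.07.

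Complex II, succinate dehydrogenase, also works in the tricarboxylic acid cycle. Its membrane anchor subunits had small positive differences, 0.05 ± 0.04 for Sdhc and 0.07 ± 0.07 for Sdhd, and the catalytic Sdha and the iron-sulfur Sdhb small negative ones, -0.02 ± 0.05 and -0.03 ± 0.07. None of these genes passed an unadjusted p of 0.05, and in all 4 the groups overlapped. In complex III the lowest difference was that of Uqcr11, a small accessory subunit, which measured 12.59, 12.50, 12.63 and 12.46 in HDACI and 12.60, 12.72, 12.64 and 12.72 in vehicle. HDACI 2 and HDACI 4 lay lowest, and the groups overlapped only through HDACI 3 and vehicle 1. The difference was -0.12 ± 0.05 (limma, unadjusted p = 0.052), and it passed an unadjusted p of 0.05 without HDACI 3 (-0.15) or vehicle 1 (-0.14). Uqcrc1, a core subunit facing the matrix, differed by 0.02, the highest of the complex, and Uqcrfs1, the Rieske iron-sulfur protein, by 0.00 ± 0.10.

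Complex IV, cytochrome c oxidase, was the complex with most positive differences, 10 of 14. Of these, Cox6c-ps1 and Cox8c lay under the dim limit. Ndufa4, counted with complex I by its symbol, differed by -0.07. The highest of the 74 genes was Cox4i2, the form of subunit 4 known for lung and for low oxygen. It measured 7.43, 7.10, 7.18 and 6.98 in HDACI and 6.94, 7.07, 7.10 and 6.79 in vehicle. HDACI 1 was the highest and vehicle 4 the lowest array, and the groups overlapped. The difference was 0.19 ± 0.10 (limma, unadjusted p = 0.096), at a mean not far above the dim limit, and it was 0.11 without HDACI 1 and 0.26, under an unadjusted p of 0.05, without HDACI 4. Its general counterpart Cox4i1 differed by 0.02 ± 0.07. The testis forms Cox6b2 and Cox8c differed by 0.15 ± 0.11 and 0.07 ± 0.06. For Cox6b2, HDACI 4 measured 8.93 and every other array lay between 8.35 and 8.55, and without HDACI 4 the difference was 0.027. The lowest difference of complex IV was -0.08 for Cox5a, whose other probe set differed by 0.03.

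In complex V, Atp5mc1 is 1 of 3 genes for the c subunit that forms the rotor ring. It measured 11.19, 11.12, 11.25 and 10.89 in HDACI and 11.26, 11.39, 11.28 and 11.24 in vehicle. HDACI 4 was the lowest array, and the groups overlapped through HDACI 3. The means were 11.11 ± 0.16 and 11.29 ± 0.07 (SD, n = 4), and the difference was -0.18 ± 0.08 log2 (limma, unadjusted p = 0.048, adjusted p = 0.9998). The unadjusted p was no longer under 0.05 without HDACI 4 (-0.11), without HDACI 2, without any single vehicle array, after a second quantile normalization, with the muscle score as a covariate (-0.14) or without the vehicle arrays high in muscle signal. The other c subunit genes, which encode the same mature protein, differed by 0.01 ± 0.05 (Atp5mc2) and -0.08 ± 0.06 (Atp5mc3). Atp5f1e, the epsilon subunit, had the highest difference of the complex at 0.03 ± 0.07. Atp5if1, the inhibitor of ATP hydrolysis by the synthase, differed by -0.06 ± 0.05.

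Of the 76 genes, 10 had more than 1 probe set, and the brightest was used. The others had the same sign for Atp5mc2, Atp5mc3, Cox7a2, Ndufs5 and Uqcrb, and the opposite sign for Atp5pd, Cox5a, Ndufb4, Ndufs6-ps1 and Ndufv3. The largest disagreement was that of Ndufv3, with -0.07 for the brightest and 0.13 for the other probe set.

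Lists of genes that serve the machinery also had 0 past an adjusted p of 0.05 (limma). For their sign counts, 46.9% of all genes were lower over all arrays and 50.1% with the muscle score as a covariate. Of 47 listed assembly factors 29 were measured, 16 lower and 13 higher in HDACI with a median of -0.01, and 9 lower and 20 higher with the muscle score as a covariate. Ttc19, an assembly factor of complex III, differed by -0.08 ± 0.04 (limma, unadjusted p = 0.087). It was the 1 gene of the 29 whose groups did not overlap, lower in HDACI (1.20% of all genes). Cox18, an assembly factor of complex IV, differed by -0.13 ± 0.07 (limma, unadjusted p = 0.089) with overlap. Of 16 tricarboxylic acid cycle genes 13 were measured, and all 13 were lower, with a median of -0.06 where 46.9% of all genes were lower. With the muscle score as a covariate 9 were lower and 4 higher, with a median of -0.03. Their median deviation ran from -0.07 to 0.00 over the HDACI arrays and from 0.01 to 0.06 over the vehicle arrays, with HDACI 4 the lowest. Sensory neuron markers had the same direction, 12 of 14 lower with a median of -0.05, and were also lowest in HDACI 4, while 10 of 11 macrophage markers were higher with a median of 0.06; the part of these cell types in the result was not tested. The groups did not overlap for 3 of the 13 genes, Pdha1, Sucla2 and Suclg1, all lower in HDACI (1.20% of all genes). Pdha1, a subunit of pyruvate dehydrogenase, measured 11.29, 11.29, 11.29 and 11.26 in HDACI and 11.35, 11.40, 11.35 and 11.35 in vehicle. Its difference was -0.08 ± 0.04 (limma, unadjusted p = 0.073), and that of Sucla2, a subunit of succinyl-CoA synthetase, -0.09 ± 0.04 (unadjusted p = 0.073).

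Of 14 electron and nucleotide carriers 13 were measured, 11 lower and 2 higher with a median of -0.02. With the muscle score as a covariate 4 were lower and 9 higher. Here and for the regulators below, the all-gene shares lower were 46.9%, and 50.1% with the covariate. The list holds Ndufab1, a complex I subunit outside the symbol rule, which differed by 0.00 ± 0.05. Ucp3, an uncoupling protein made mainly in muscle, differed by -0.29 over all arrays and by 0.01 with the muscle score as a covariate, and Ucp2, the more widely made form, by 0.13 ± 0.06. Of 18 regulators of mitochondrial biogenesis 16 were measured, 4 lower and 12 higher with a median of 0.02, and 6 lower and 10 higher with the muscle score as a covariate. Ppargc1b, a coactivator of mitochondrial genes, differed by 0.08 ± 0.05 (limma, unadjusted p = 0.14). Ppargc1a, a related coactivator on the same list, went the other way, by -0.08 ± 0.05 (limma, unadjusted p = 0.14). Nrf1, the transcription factor that binds the NRF-1 core, was the only one of these 16 under an unadjusted p of 0.05. It was higher in HDACI, as were 1.41% of all genes at that threshold. It measured 9.71, 9.67, 9.59 and 9.70 in HDACI and 9.58, 9.56, 9.51 and 9.56 in vehicle. Every HDACI array lay above every vehicle array, by a small margin between HDACI 3 and vehicle 1 (1.04% of all genes). The difference was 0.12 ± 0.05 log2 (limma, unadjusted p = 0.029, adjusted p = 0.9998).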

How the data were processed

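RNA from 8 injured L5 DRG, 4 HDACI and 4 vehicle biological replicates, was hybridized to Affymetrix rat gene arrays. The authors normalized the arrays by RMA (Bioconductor package oligo, version not given in the sources used here) and deposited log2 values for 28826 probe sets, used here as deposited. RMA hides global shifts between arrays, and background signal compresses differences of dim probe sets. GEO's platform annotation gave 15209 probe sets 1 symbol, 306 several and 13311 none. Each gene was read from its brightest probe set. All 76 symbols matched RefSeq (GRCr8), which also gave the promoters.

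HDACI was compared with vehicle over all probe sets with limma 3.58.1 (R 4.3.3), lmFit and eBayes. Tests were two-sided, and p-values were adjusted over the 28826 probe sets (Benjamini-Hochberg). SE, 95% confidence intervals and p-values are those of this fit, which was tested on simulated data. The number of arrays limits precision. Genes, lists and tests were chosen with earlier results of these data known. Named were members at an unadjusted p under 0.05, members without overlap, the extremes and brightest of each complex, tissue forms and their counterparts, genes whose probe sets differ in sign, and the 2 smallest p of each pathway list. Others (Atp5f1b, Atp5mc2, Atp5mc3, Ndufa4, Ndufa10, Ndufs1, Ndufv1, Sdha, Uqcrfs1, Cox4i1, Cox7a2l, Cox7b, Ndufb8, Suclg1, Ndufab1, Ppargc1a) were added for their role or after their values were seen. Alternatives covered normalization, variance model, array weights, dim probe sets, probe set choice, a muscle marker covariate, a replicate block and left-out arrays.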

Additional observations from a re-analysis of the deposited data

Results flagged for a closer look

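In 3 groups of 4 arrays 1 value stood far from the other arrays of its group, with a gap to the nearest array, as a share of the group's range, above Dixon's critical value for 4 arrays at the 95% level. For Cox6b2 in HDACI the share was 0.854, with 8.93 in HDACI 4 and 8.416 to 8.491 in the other HDACI arrays. For Sdhb in HDACI it was 0.844, with 10.511 in HDACI 3 and 10.576 to 10.589 in the others. For Sdhc in vehicle it was 0.913, with 12.219 in vehicle 1 and 12.126 to 12.135 in the others. Chance gives such a gap in about 1 in 20 groups, and 58 were looked at.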

How the results depend on the processing

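No gene of the 74 passed an adjusted p of 0.05 under any of the 19 alternatives. The count lower at an unadjusted p under 0.05, 2 as reported, was 4 with median centring, with trend and robust variances, with array weights and with the mean over a gene's probe sets, 3 with the filter on dim probe sets, and 1 after a second quantile normalization. It was 0 with the muscle score as a covariate and without vehicle 1 and vehicle 2, 1 without vehicle 1, vehicle 2 and vehicle 4, and 1 to 5 with single arrays left out. The count higher, 0 as reported, was 3 with the muscle score, 5 and 1 without those vehicle arrays, and 0 to 1 with single arrays left out. Lower in sign were 48 as reported, 21 with the muscle score, 22 and 29 without those vehicle arrays, and 31 to 64 with single arrays left out. The median difference, -0.02, became 0.053 with the muscle score, 0.039 without vehicle 1 and vehicle 2 and 0.020 without vehicle 4 as well, and ran from -0.051 to 0.012 with single arrays left out, 0.012 without vehicle 1. The median of the muscle forms, -0.83, became 0.12 with the muscle score, -0.19 and 0.053 without those vehicle arrays, -0.97 with the dim filter, which drops Cox8b, and ran from -1.13 to -0.53 with single arrays left out. Cox6a2 turned to 0.14 with the muscle score and 0.11 without vehicle 1, vehicle 2 and vehicle 4, and Cox8b to 0.092 with the muscle score. As reported, 1.93% of all genes were lower and 1.41% higher at an unadjusted p under 0.05, and 46.9% were lower in sign. Such shares are not given for the other normalizations, variance models, weights or single left-out arrays. Those settings can move calls for all genes, so their counts do not single out the 74. The causes of these moves were not tested. Replicate numbers did not pair the arrays: deviations of same-numbered arrays correlated at -0.04, 0.01, 0.01 and -0.28, and 0 arrays matched their own number best. With the replicate number as a block 3 genes were lower at an unadjusted p under 0.05, 48 were lower in sign, the medians stayed at -0.02 and -0.83, and 0 passed an adjusted p. Probe sets near the dim limit carry little signal over background, which limits Cox8b, Cox8c and Cox6c-ps1.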
